A study of Musca domestica with 29 samples.

Results

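The abdomens of males of the house fly (Musca domestica) that carry the Y chromosome YM were compared between 2 genotypes, called YM and YM(III). The libraries were chosen by their labels: 3 YM male abdomens of strain IsoCS and 3 YM(III) male abdomens of strain bwbCS, 6 of the 29 libraries in the series. Both genotypes carry YM, and the labels describe males of the first as isogenic apart from YM, and males of the second as isogenic apart from YM and a single copy of chromosome III. With 1 strain per genotype, the copy of chromosome III cannot be told apart from anything else that separates strain bwbCS from strain IsoCS. Each library was made with poly(A) RNA from the abdomen of an individually dissected fly, and no age is stated for the flies. For reference, the series also holds abdomens of males that carry the male determiner on chromosome III (IIIM #1, strain CS, and IIIM #2, strain CSrab, 3 libraries each), 1 female abdomen of strain IsoCS and 1 of strain CSrab, and heads of the same genotypes.

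House fly sex is set by a dominant male-determining gene that can sit on the Y chromosome or on other chromosomes, chromosome III among them. A chromosome that carries it acts as a young Y chromosome, or proto-Y, and differs little in gene content from its homologue. The male abdomen holds the testes and the rest of the reproductive tract beside gut and fat body, and it makes many transcripts that are absent or rare in females and in heads.

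Depth differed widely: whole reads recovered from the deposited values summed to 4.66, 0.789 and 43.5 M in the YM libraries and to 2.77, 8.58 and 19.2 M in YM(III). Replicate 3 of the male genotypes stood apart from replicates 1 and 2, so differences are also given within replicates 1 and 2 and within replicate 3. The labelled sex was checked on markers. The maternal egg transcript bcd was at 0 to 3.40 in the 6 libraries and at 181 and 78.2 in female abdomens. The yolk protein gene yp3 was at 53.9 to 789 in the 6 and at 3487 and 2460 in females. These markers bear on sex and not on tissue. The tables carry no names for testis, gut or muscle markers, which were not analysed here.

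Of 11342 genes tested, 1047 differed between YM and YM(III) abdomens (9.23%; limma, adjusted p under 0.05). Of these, 857 genes (7.56%) were higher in YM and 190 (1.68%) were lower. The genes higher in YM also had the larger changes, with a median log2 difference of 3.61, or 12.2-fold, against a median of -1.40, or 2.64-fold, for the lower genes and -0.04 for all genes tested. A log2 difference above 4 was found for 288 of the higher genes, and one below -4 for 19 of the lower genes. The higher genes were of middling abundance, with a median of the mean normalized read count of 161 in YM and 18.2 in YM(III). Of the abundant genes, those with a mean of at least 1000 over the 6 libraries, 22 were called higher and 40 lower. The median log2 difference of these 1171 abundant genes was -0.50, called or not, so a small negative difference was typical of genes at that level.

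**Figure D1:**
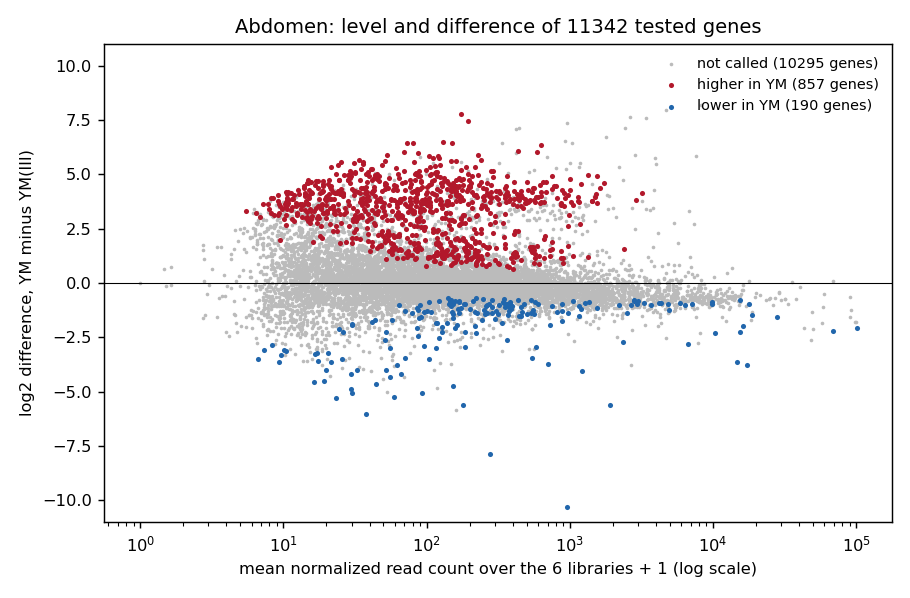
Log2 difference between YM and YM(III) male abdomens (vertical axis) against the mean normalized read count of the 6 libraries plus 1 (horizontal axis, log scale), 1 point per tested gene, coloured by the limma call. The 857 genes higher in YM form a cloud of moderate abundance at a median log2 difference of 3.61, and the 190 lower genes lie at a median of -1.40 and reach the most abundant transcripts.

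The replicate numbers were taken to pair the libraries, as set out below. A replicate block raised the count of called genes to 2379 (21% of those tested), 1451 higher and 928 lower. All 1047 stayed called. Their direction could not change, because the block leaves the log2 differences of this balanced design as they are. The 3 libraries of one genotype did not overlap the 3 of the other for 1046 of the 1047 called genes, beside 29.3% of all genes tested. The count moved with single libraries: it was 261 without YM replicate 1, 348 without YM replicate 2, 525 without YM(III) replicate 1 and 510 without YM(III) replicate 3. Without YM replicates 1 and 2, where the antimicrobial peptide genes described below were high, it was 2, with a single YM library left. Of the 857 and 190 genes, 208 and 33 were called in each of the 6 fits that left out 1 library.

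The IIIM males, which took no part in the difference itself, mostly lay between the pair. The means of both IIIM genotypes fell between those of YM and YM(III) for 792 of the 857 higher genes (92.4%) and 132 of the 190 lower genes (69.5%), beside 36.3% of all genes tested. For the higher genes, the median level was 161 in YM, 75.1 in IIIM #1, 60.9 in IIIM #2 and 18.2 in YM(III). For the lower genes the order was reversed, with medians of 120 in YM, 220.3 in IIIM #1, 247 in IIIM #2 and 347 in YM(III). Genes called for a large difference within the pair leave more room for other genotypes between them than genes at large, so these shares are a description.

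Genes of the male abdomen were called higher in YM more often than other genes. A male abdomen class of 768 tested genes was taken from libraries outside the comparison: a mean of at least 2 CPM (reads of a gene scaled to the library total) in the 6 IIIM male abdomens, with the mean CPM of the 2 female abdomens and of the 6 IIIM male heads each under 10% of that. In the class, 305 genes (39.7%) were called higher in YM and 17 (2.21%) lower. These were 35.6% of the 857 higher genes and 8.95% of the 190 lower genes, beside 6.77% of all genes tested. Most called genes, 725 of 1047, thus lay outside the class. Among the other 10574 tested genes, 5.22% were higher and 1.64% lower. The median log2 difference was 3.31 in the class and -0.08 in the other genes. The class was spread over a wide range: 508 of its genes (66.1%) had a log2 difference above 2, against 7.43% of the other genes, 79 lay between 0 and 2, and 181 were below 0. The 3 and 3 libraries did not overlap for 463 class genes (60.3%), beside the 29.3% of all genes tested.

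The median class gene measured 275, 314 and 152 normalized reads in the YM libraries and 27.7, 78.6 and 8.21 in YM(III), in the order of replicates. Each YM library lay above each YM(III) library, and replicate 3 was the lowest of its genotype on both sides. In IIIM #1 the medians were 204, 181 and 53.8, and in IIIM #2 they were 147, 136 and 117. In the female abdomens they were 0.164 and 0. The class was read in YM(III) at a lower level, and the IIIM libraries lay between the YM and YM(III) libraries of the same replicate number in all 3 replicates. In bulk abdomens, fewer cells of a type and less RNA per cell cannot be told apart.

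**Figure D2:**
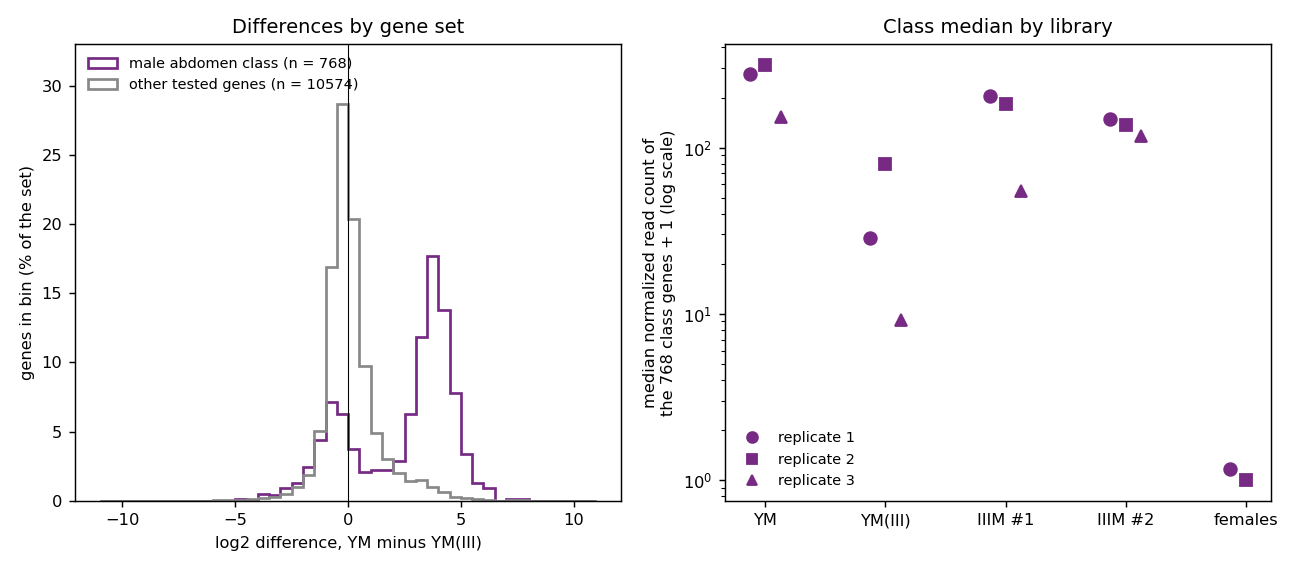
Left, distribution of the log2 difference between YM and YM(III) abdomens for the 768 class genes and the other 10574 tested genes, in equal bins, as a percentage of each set. Right, the median normalized read count of the class genes plus 1 in each abdomen library (log scale), where each point is 1 library: YM lies at 152 to 314, YM(III) at 8.21 to 78.6, and females at 0 and 0.164.

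Within replicates 1 and 2 the median log2 difference of the class was 2.87, and within replicate 3 it was 3.83, with 76.7% and 77.0% of its genes higher in YM. With the replicate block, 488 class genes (63.5%) were called higher and 40 (5.21%) lower, beside 12.8% and 8.18% of all genes tested. The percentage of the class called higher was 10.5% without YM replicate 1, beside 1.95% of all genes, and 11.6% without YM replicate 2, beside 2.44%. It was 17.2% without YM(III) replicate 1, beside 3.98% of all genes, and 18.1% without YM(III) replicate 3, beside 3.61%. The class was set up after the data had been seen, and with female and head limits of 5% and 20% in place of 10% the called share was 45.7% and 30.6%.

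The class spanned a wide range of levels. Its 637 genes with a mean under 1000 had a median log2 difference of 3.55, with 287 called higher and 9 lower. Its 131 genes with a mean of at least 1000 had a median of -0.41, near the -0.50 of all abundant genes, with 18 called higher and 8 lower. Summed over its genes, the class took 13.9% to 19.2% of the reads of YM libraries and 16.4% to 21.3% of YM(III) libraries, although most of its genes were lower in YM(III). The 508 genes above a log2 difference of 2, chosen on that difference, took 5.71%, 6.87% and 2.17% of the reads in YM and 0.315%, 1.08% and 0.0669% in YM(III).

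The 17 class genes lower in YM, chosen on that difference, took 1.07% to 1.26% of the reads in YM libraries and 2.64% to 5.08% in YM(III). LOC101889585, on element D, was among the most abundant transcripts of the abdomen, with 34903, 38300 and 39477 normalized reads in YM and 156438, 215717 and 120685 in YM(III). It was 4.26-fold lower in YM (log2 -2.09, SE 0.33, limma adjusted p = 0.00594), and every YM(III) library held at least 120685. Its reference neighbours moved with it: LOC101889368 (940.5, 2695 and 3796 against 33270, 18416 and 29650; log2 -3.63, SE 0.55) and LOC101889483 (5457, 7113 and 7043 against 23133, 34713 and 20064; log2 -1.96, SE 0.32). All 3 genes were at 0 to 3.93 in female abdomens and kept their call in each of the 6 fits without 1 library.

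LOC109612143, which has no element in the tables, measured 1121, 2519 and 4378 in YM and 28005, 41693 and 25902 in YM(III), 13.5-fold lower in YM (log2 -3.75, SE 0.53, limma adjusted p = 0.00382). The IIIM means were 7759 and 8301, and the females were at 0.328 and 0. LOC109611833, on element D, measured 4543, 5850 and 5555 in YM and 32135, 23935 and 21274 in YM(III), 4.80-fold lower (limma adjusted p = 0.00726). Both genes kept their call in each of the 6 fits without 1 library. These 5 class genes were chosen for description after their values were seen, and no product name is attached to them in the tables.

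Several of the genes with the largest differences were near 0 in all 3 libraries of 1 genotype. LOC109612757, on element A, which is chromosome III of the house fly, measured 380.2, 413 and 365 in YM and 0, 2.89 and 1.64 in YM(III) (log2 7.47, SE 0.80, limma adjusted p = 0.00146). The YM values lay close together, and no YM(III) library had more than 3 reads. IIIM males had means of 160 and 80.6, and females had none.

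LOC109613755, on element E, measured 390.1, 589.6 and 66.6 in YM and 0, 0 and 0.548 in YM(III) (log2 7.76, limma adjusted p = 0.0129). That is 802 reads against 1, a ratio of 341 after scaling (95% counting interval 61.0 to 13470). YM replicate 3 was well below the other YM libraries, and limma's adjusted p was 0.0628 without YM replicate 1. IIIM #2 had none of it in any library, and IIIM #1 had a mean of 55.4 ± 71.6 (SD, n = 3).

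LOC101888701, on element D, measured 116, 153 and 159.7 in YM and 0, 1.93 and 0.548 in YM(III), with 1181 reads against 3 (ratio 167, 95% counting interval 57.1 to 812; limma adjusted p = 0.000756). The means in IIIM males were 43.9 and 44.8. The gene with the smallest adjusted p of all, named after its values were seen, was LOC101891811 on element B, at 1142, 1087 and 1250 in YM and 16.6, 21.2 and 13.1 in YM(III), 65.5-fold higher in YM (log2 6.03, SE 0.35, limma adjusted p = 4.32e-05). Its values lay close together within each genotype, and the IIIM means were 429 and 345.

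The other genes in the 8 largest increases were LOC109614250, LOC101889215, LOC109613779, LOC101888492 and LOC101889013, with log2 differences of 6.08 to 6.48 and limma adjusted p of 0.00153 to 0.0250. LOC101889013, on element A, measured 1045, 888 and 557 in YM and 0, 89.7 and 17.5 in YM(III). LOC101888492 measured 1859.6, 1371 and 505 in YM and 13.8, 1.93 and 52.6 in YM(III), and it was also read in heads of both genotypes, with means of 312 and 199. LOC109614250 and LOC109613779 kept their call in 2 of the 6 fits without 1 library and LOC101889013 in 4, with limma adjusted p of up to 0.0942. All 8 genes belong to the male abdomen class.

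Among genes lower in YM, LOC109614376 on element B had the greatest difference, at 1.42, 0 and 0.148 in YM and 1794, 2764 and 1148 in YM(III) (log2 -10.31, SE 1.25, limma adjusted p = 0.00196). That is 2 reads against 5610, a ratio of 6605 after scaling (95% counting interval 1827 to 54549). All YM(III) libraries were high. IIIM males were at means of 6.93 and 2.93, females had none, and the heads of YM and YM(III) males were at means of 0 and 0.356.

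LOC101896776, on element E, had 0 reads in all YM libraries, all IIIM abdomens and both female abdomens, and measured 19.4, 545 and 1103 in YM(III) (limma adjusted p = 0.00556; edgeR 0.0707; DESeq2 0.0593). With the reads of each group pooled and 3 reads over the YM group as the floor, it was at least 2029.6-fold higher in YM(III). The deepest libraries weigh most in the pooled reads, so this is not a bound for each replicate. YM(III) replicate 1 had 7 reads, and the log2 difference from limma was -7.85, or 231-fold. In heads it was again at 0 in YM and at 161, 75.5 and 459 in YM(III) (limma adjusted p = 0.000442). The YM(III) abdomens spread widely, with replicate 1 far below the other two.

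LOC101892939 measured 73.8, 45.9 and 92.8 in YM and 3999.9, 5348 and 1827 in YM(III), 49.2-fold lower in YM (log2 -5.62, SE 0.70, limma adjusted p = 0.00225), with IIIM means of 401 and 403. LOC109612235 measured 2.84, 15.3 and 4.44 against 271, 287 and 486, with IIIM means of 6.77 and 2.06 and none in females. LOC101888074 and LOC101888851 were at 116 to 457 and at 101 to 130.1 in YM(III), against 0 to 30.6 in YM and IIIM means of 3.37 to 21.5. LOC101888074 kept its call in 2 of the 6 fits without 1 library and was read in heads of both genotypes, at means of 205 and 368. LOC105261776, on element B, measured 4.26, 7.66 and 1.92 in YM and 94.1, 134 and 83.8 in YM(III) (log2 -4.33, SE 0.44, limma adjusted p = 0.00143), and it was at 2.46 in the IsoCS female and at 69.7 in the CSrab female.

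**Figure D3:**
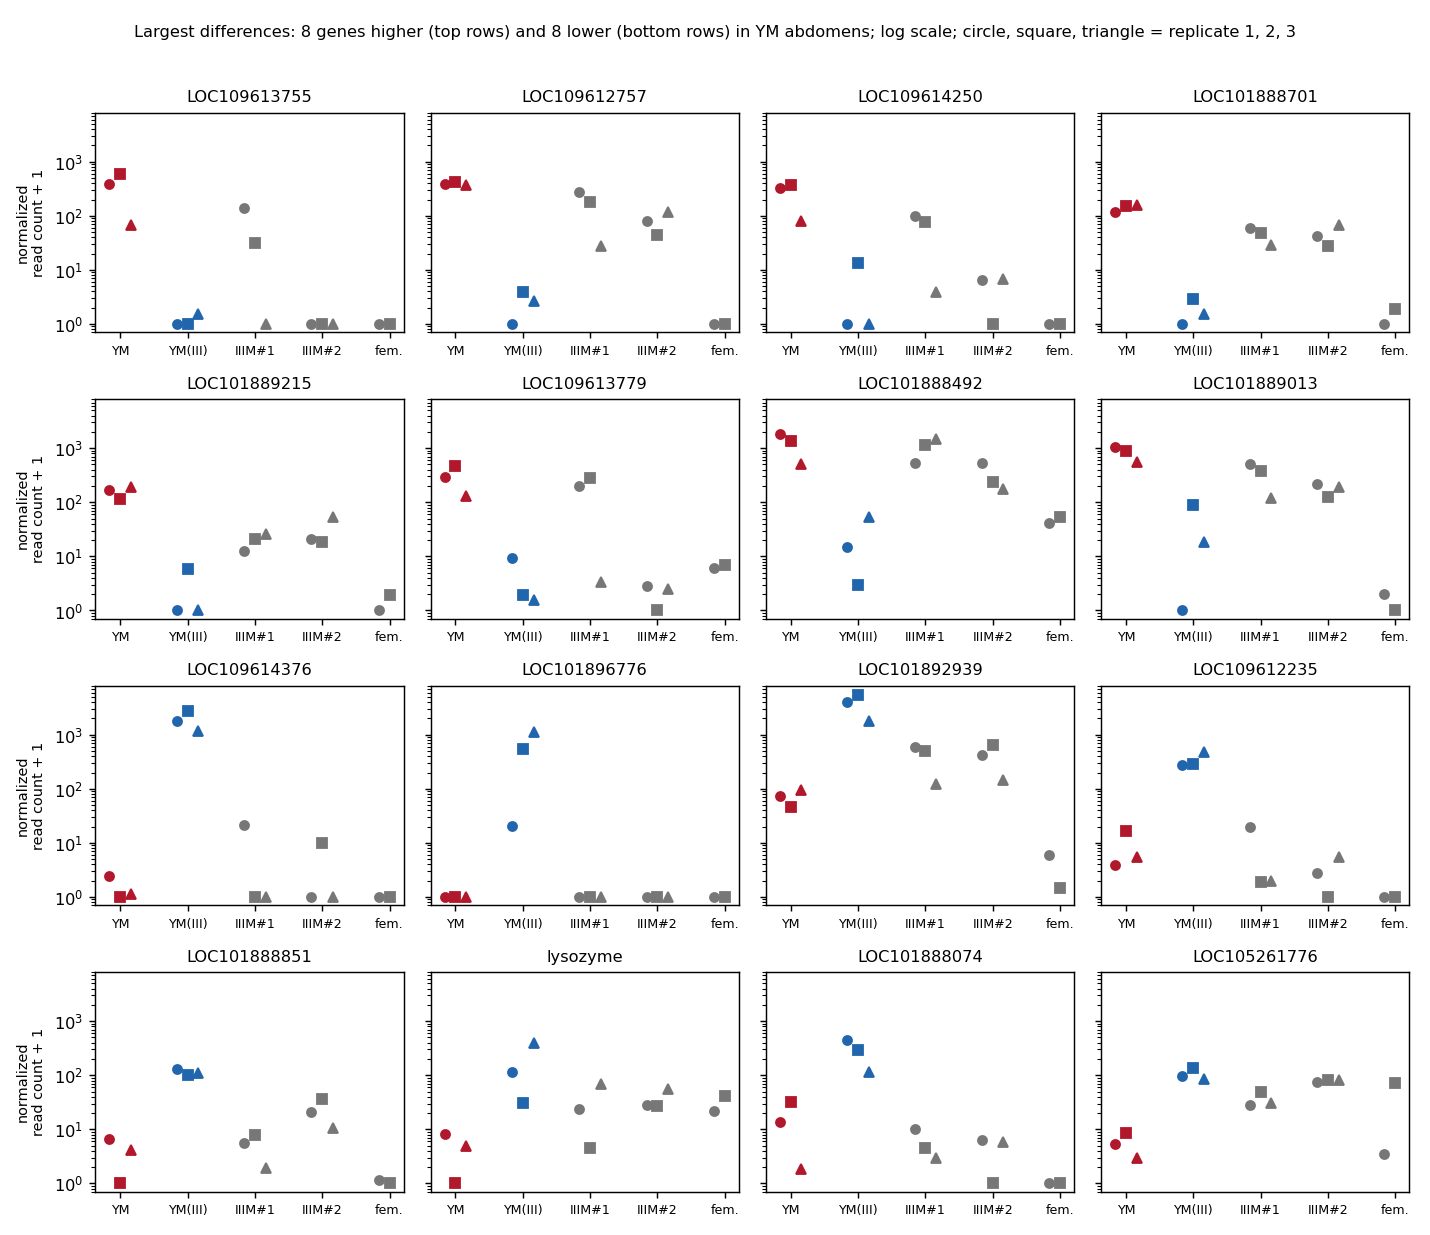
Normalized read count plus 1 (log scale) of the 16 genes with the largest differences by the naming rule, 1 panel per gene and 1 point per abdomen library, with marker shape for the replicate; red points are YM, blue YM(III) and grey the IIIM males and females. The 8 genes of the upper rows are at 66.6 to 1859.6 in YM and at 0 to 89.7 in YM(III), and the 8 of the lower rows are at 0 to 92.8 in YM and at 19.4 to 5348 in YM(III).

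A stricter definition asked for at most 3 reads in each library of one genotype and at least 50 normalized reads in each of the other. By it, 11 genes were low in YM(III) and 2 were low in YM. In normalized reads, 3 reads stand for 4.26, 23.0 and 0.444 in the YM libraries and for 8.30, 2.89 and 1.64 in YM(III). The limit thus differs with depth, and the counts of 11 and 2 cannot be set against each other. The 2 were LOC109614376 and LOC101898751, the second at 0, 0 and 0.444 in YM and at 63.7, 77.2 and 78.3 in YM(III). The IIIM means of the 11 genes ranged from 0 to 162. LOC105261623, on element B, named after its values were seen, was abundant in females: 61.0, 68.9 and 60.7 in YM, 8.30, 0 and 0.548 in YM(III), and 517 and 595 in the female abdomens.

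Genes with a symbol were called about as often as all genes tested. Of 44 tested, 1 was called higher and 3 lower (9.09%, near the 9.23% of all genes tested). With the replicate block 1 of the 44 was higher and 6 were lower, beside 21% of all genes called with the block. The symbols are grouped below in lists put together with earlier results of these data known.

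IR25a, which encodes a co-receptor of the ionotropic receptor family that serves smell, taste, and temperature and humidity sensing in Drosophila, was the gene called higher. It measured 369, 429 and 146 in YM and 38.8, 75.2 and 10.4 in YM(III) (log2 3.13, SE 0.77, limma adjusted p = 0.0313). The genotypes did not overlap, and replicate 3 was the lowest library of each, as for the class. IR25a kept its call in 2 of the 6 fits without 1 library, with a limma adjusted p of up to 0.118 without YM replicate 1. In heads it did not differ by the test, at means of 497 and 576. Of the other nervous system genes tested, para-like, a sodium channel gene, and nAChRbeta3, an acetylcholine receptor subunit gene, were not called (log2 -0.27 and 0.19).

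Lysozyme, an enzyme that breaks down bacterial cell walls and serves digestion in flies, was lower in YM. It measured 7.09, 0 and 4.00 in YM and 116, 29.9 and 399 in YM(III) (log2 -5.04, SE 1.19, limma adjusted p = 0.0268). The YM(III) libraries varied widely but lay above every YM library, and lysozyme kept its call in 2 of the 6 fits without 1 library, with a limma adjusted p of up to 0.0984 without YM replicate 2. The antimicrobial peptide genes diptericin, attacin and defensin-1 were high in 2 of the 3 YM libraries. Diptericin measured 8528 and 41034 in YM replicates 1 and 2 and 3.11 in YM replicate 3, with 0 to 13.8 in YM(III), and was not called (log2 8.19, SE 3.08, limma adjusted p = 0.130; DESeq2 3.66e-07). Attacin and defensin-1 were high in the same YM libraries and were not called by limma (adjusted p of 0.144 and 0.166), but edgeR called both (adjusted p of 0.0393 and 0.0436). In YM replicate 3 attacin was at 3.26 and defensin-1 at 69.3, beside 2.74 and 64.1 in YM(III) replicate 3. In heads diptericin was at 3086 and 8539 in YM replicates 1 and 2 and at 5.39 in YM replicate 3, with 1.44 to 9.60 in YM(III). Attacin and defensin-1 were not near 0 in YM(III) heads. Head means were 967 in YM and 132 in YM(III) for attacin, and 6110 and 3771 for defensin-1. Limma called none of these peptide genes in heads. Within replicate 3 of the abdomens, with 1 library a side, the median class difference was the 3.83 given above. The part of these peptide genes in the other differences was not tested.

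CYP12A2, a mitochondrial cytochrome P450, was the one of 14 tested genes of xenobiotic metabolism that was called, beside 9.23% of all genes tested. It measured 125, 130.2 and 105 in YM and 349, 214 and 268 in YM(III), 2.26-fold lower in YM (log2 -1.18, SE 0.23, limma adjusted p = 0.0137; 0.0556 without YM replicate 1). With the replicate block GST-6A, a glutathione transferase (limma adjusted p = 0.0269), and LOC101891761, which the reference also lists as CYP6A40 (0.0384), were called lower as well, which makes 3 of 14, close to the 21% of all genes called with the block. The list had a median log2 difference of -0.40, and 10 of its 14 tested members were below 0. Over all genes tested the median was -0.04, with 5951 of 11342 below 0. The median of -0.50 given above for abundant genes is a reference only for members at that level. HR96, a member at means of 42.2 in YM and 39.6 in YM(III), was far below it.

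SOD2, a superoxide dismutase, measured 1987, 2389 and 1883 in YM and 3718, 3519 and 3450.1 in YM(III), 1.72-fold lower in YM (log2 -0.78, SE 0.21, limma adjusted p = 0.0441). It lost its call in each of the 6 fits without 1 library, and with edgeR (adjusted p = 0.0690). SOD1 was called lower with the replicate block (limma adjusted p = 0.0167), and SOD was not called (log2 -0.65). Of 5 chaperone genes, limma called 0, also with the replicate block: hsp20, a small heat shock protein gene, was at log2 -0.78 (limma adjusted p = 0.347), HSP70 at -0.41 and the 3 chaperonin subunit genes at -0.19 to 0.29.

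The yolk protein gene yp3 measured 53.9, 76.6 and 58.2 in YM and 789, 682 and 83.2 in YM(III) (log2 -2.50, SE 0.86). It was not called (limma adjusted p = 0.101), but it was called lower with the replicate block (limma adjusted p = 0.0302) and by edgeR (adjusted p = 0.0485). The high values lay in YM(III) replicates 1 and 2, and the log2 difference was -3.49 within replicates 1 and 2 and -0.51 within replicate 3. Sxl, whose counterpart is the sex switch of Drosophila but not of the house fly, was at log2 -0.19. The 4 serpin genes tested (median log2 -0.06), the 2 of trehalose and polyamine metabolism (-0.55) and the 3 signalling genes (-0.04) were not called by limma, with or without the replicate block.

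**Figure D4:**
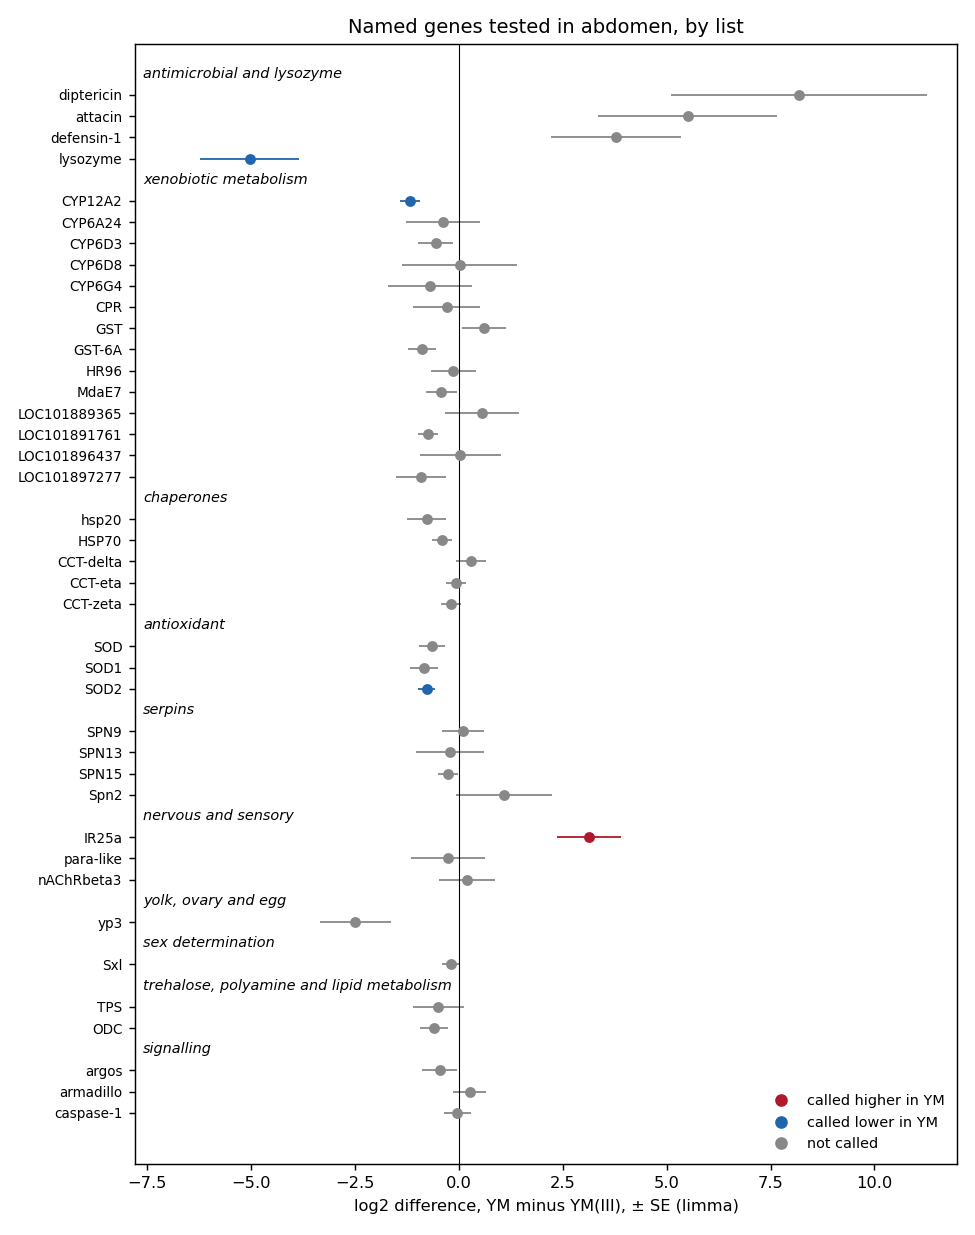
Log2 difference between YM and YM(III) abdomens with its SE from limma for the named genes tested, grouped by list; red marks genes called higher in YM, blue those called lower, and grey those not called. IR25a is at 3.13, and lysozyme, CYP12A2 and SOD2 are at -5.04, -1.18 and -0.78.

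The labelled difference between the genotypes is a copy of chromosome III, which is Muller element A. Element A held 172 of the 872 called genes that have an element (19.7%), beside 18.0% of the tested genes that have one. By element, 9.90% of tested genes were called on A, 8.90% on B, 7.59% on C, 9.76% on D, 9.20% on E, and 3 of 34 (8.82%) on F, the X chromosome, where all 3 were higher in YM. The median log2 difference was -0.03 on element A and -0.04 over all genes. Outside the male abdomen class, 7.88% of tested genes on element A were called, beside 6.86% of all tested genes outside it.

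By the naming rule, the 3 genes of element A with the largest increases were LOC109612757 and LOC101889013, described above, and LOC101891599 (155, 184 and 70.5 against 0, 3.86 and 0.548). The 3 with the largest decreases among genes with a mean of at least 50 were LOC101899612, LOC101900872 and LOC109614275. LOC101899612 measured 76.6, 115 and 63.2 in YM and 293, 243 and 502 in YM(III) (log2 -1.99, SE 0.43), LOC101900872 was at log2 -1.83 and LOC109614275 at -1.75. LOC109614275 kept its call in 1 of the 6 fits without 1 library, LOC101899612 in 4 and LOC101900872 in all 6. On element F, LOC101892220 measured 136, 123 and 75.3 in YM and 5.54, 4.82 and 3.29 in YM(III) (log2 4.32, SE 0.60, limma adjusted p = 0.00344), and LOC101892507 and LOC101893704 were at log2 3.60 and 1.24, with calls kept in 2 of the 6 fits each.

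Neighbours were taken from the order of the reference annotation. Of 622 higher genes with a tested neighbour within 100000 bases, 114 (18.3%) had a neighbour that was also higher, beside 10.9% of all tested genes with a tested neighbour. Most called genes thus had no neighbour called the same way, and the shares were not tested against each other. For the 136 lower genes the figures were 11 (8.09%) and 2.47%. There were 5 runs of 3 neighbours called in the same direction, the run around LOC101889585 and 4 runs of higher genes. The run on element A joined LOC101898834 (197, 222 and 243 against 2.77, 22.2 and 2.19) and LOC101899016 (213, 168 and 118 against 11.1, 32.8 and 4.38), both of the class, to LOC101898149, which measured 190.1, 176 and 173 in YM, 58.1, 49.2 and 47.1 in YM(III), and 559 and 592 in females.

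In heads of the same genotypes, 97 of 12060 genes tested differed (0.804%; limma), 24 higher and 73 lower in YM. Of the 1047 genes called in abdomen, 655 were tested in heads, and 25 were called there. Of these, 24 had the same direction, 6 higher and 18 lower in YM, which is 3.66% of the 655 abdomen calls tested in heads and 32.9% of the 73 head calls tested in abdomens. Of the 183 class genes tested in heads, 5 were called. The 857 higher genes, of which 482 were tested in heads, had a median head log2 difference of 0.15, and the 173 lower genes tested had a median of -0.46, beside -0.01 for all head genes. The head count depended on the libraries used: it was 30 to 97 when 1 was left out and 431 (3.57%) with the replicate block. With replicates 1 and 2 only it was 1208 (10%), 641 higher and 567 lower in YM, beside 1236 (10.9%) in abdomens under the same setting.

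Many of the 24 genes with the same direction in both tissues differed in that direction between IsoCS females and females of other strains. These female libraries took no part in either comparison, and none is of strain bwbCS. In female heads, 1 library a strain, IsoCS was more than 2-fold below the mean of CSrab and CS for 11 of the 18 lower genes (61.1%) and more than 2-fold above it for 6 of the 6 higher genes. Over all genes tested in abdomen the shares were 5.19% and 2.19%. None of the 18 was more than 2-fold higher in the IsoCS female head. In female abdomens, IsoCS was more than 2-fold below CSrab for 9 of the 18 and above it for 3 of the 6, beside 5.27% and 9.79% of all genes. With 1 library a strain, these female values have no replicate check. Each female strain also has its own replicate number, so strain and replicate number cannot be told apart in females. For the whole of the 857 higher genes the IsoCS female was over 2-fold higher for 6.65% in abdomen and 5.48% in head. The shares of all genes were 9.79% and 2.19%. The median female abdomen level of the 857 genes was 1.65, beside 112 for all genes tested. Genes so near 0 can seldom pass the 2-fold limit on log2(value + 1). The abdomen share of the 857 thus cannot show whether these genes differ between strains in females. For the whole of the 190 lower genes the IsoCS female was over 2-fold lower for 15.8% in abdomen and 16.3% in head. The shares of all genes were 5.27% and 5.19%.

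LOC101896886, on element A, was one of the 18, and like the next gene it was chosen after its values were seen. It was at 1.42, 0 and 0.296 in YM abdomens and at 24.9, 21.2 and 61.3 in YM(III) abdomens (log2 -4.49, SE 0.57, limma adjusted p = 0.00225), and at 0, 0 and 0.490 against 46.9, 27.0 and 38.8 in heads (limma adjusted p = 0.000442). Females of IsoCS had 0.655 in abdomen and 1.96 in head, whereas those of CSrab had 48.7 and 230.2. IIIM males lay with YM(III), at means of 35.3 and 52.3, so that IsoCS flies of both sexes were low. LOC101891053, also on element A, was higher in YM, with a call kept in 2 of the 6 fits without 1 library, at 231, 237 and 236 in YM abdomens and 2.77, 3.86 and 2.74 in YM(III), at means of 567 and 16.7 in heads, and at 319 in the IsoCS female head against 0 and 16.4 in CSrab and CS. The IsoCS female abdomen, at 6.72, was far below the YM males, and the IIIM abdomens, at means of 67.2 and 21.2, lay between the pair.

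**Figure D5:**
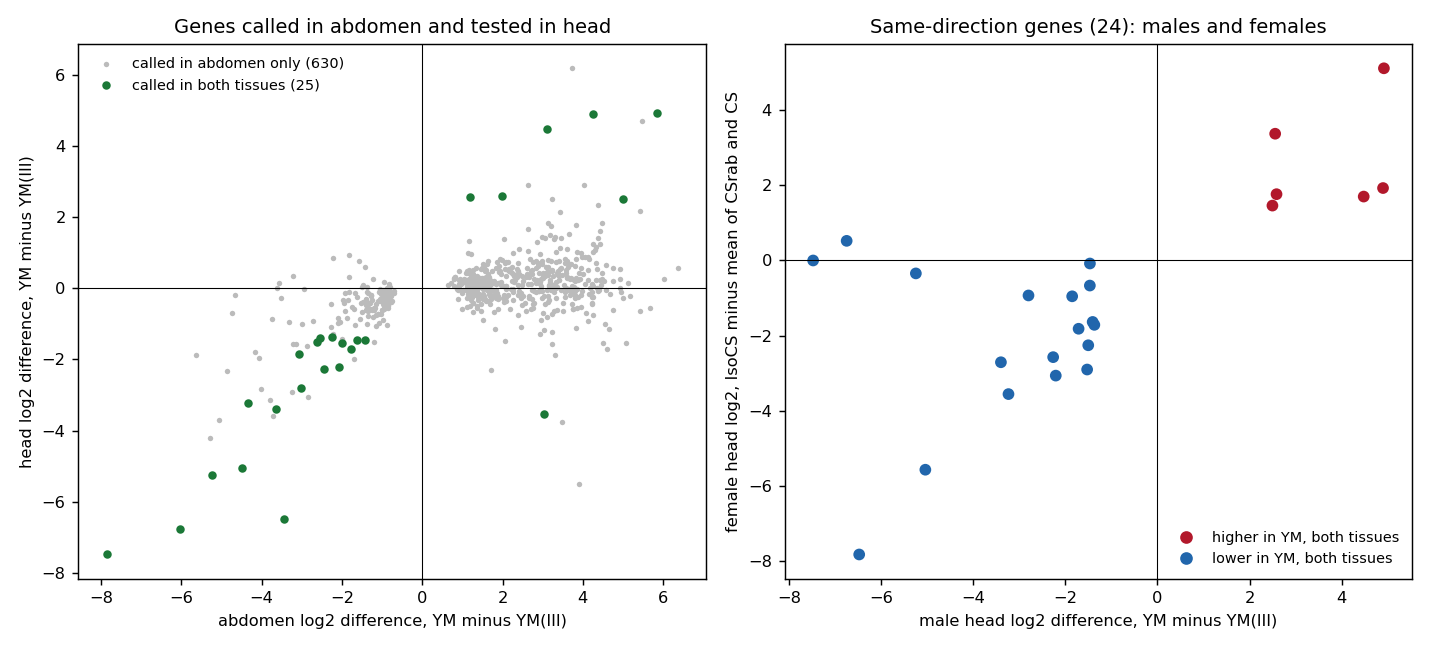
Left, head against abdomen log2 difference between YM and YM(III) for the 655 genes called in abdomen and tested in head, with the 25 called in both tissues in green; 24 lie in the quadrants of equal sign. Right, for those 24 genes, the female head log2 difference of strain IsoCS from the mean of CSrab and CS (1 library each) against the male head log2 difference; the 6 genes higher in YM are all above 0.

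The authors' deposited table for the same comparison lists 1159 of 11533 genes with an adjusted p under 0.05 (10%), 966 higher and 193 lower in YM. The mean values in the authors' deposited table weight replicate 3 at 0, so they rest on replicates 1 and 2. Of the genes called here, 643 are called in the authors' deposited table (61.4% of 1047 and 55.5% of 1159), all 643 in the same direction. With replicates 1 and 2 only, 903 of 1236 genes called (73.1%) are called in the authors' deposited table, which is 77.9% of its 1159.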

How the data were processed

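Each library came from a single fly, and the series' design text calls the replicates biological, so p-values measure the spread between these individuals. Per the labels' protocols, libraries were strand-specific poly(A) libraries. Per the submitters' processing notes, the tools named, without their roles, were CASAVA 1.8, HTSeq 0.9.1, HISAT2 0.12.2 and DESeq2 1.16.1. The genome build, and whether counting used strand, are not given in the sources used here. Reads of near-identical or overlapping genes may therefore be split between them. Per the file headers, the authors deposited normalized counts, a signal on a linear scale, for each library, 1 table for abdomens and 1 for heads. For each comparison the authors also deposited log2 fold changes with their adjusted p-values, per the file headers. Because each tissue has its own normalization, no test spans both.

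Each library's values were whole multiples of the value of 1 read in 100% of genes, within 0.001 reads, and gave the depths reported. Depth of male abdomens ran from 0.789 to 43.5 M reads, which puts 3 reads at 3.80 to 0.069 CPM. Counting intervals (95%, exact) and the floor of 3 reads cover counting error only. They pool the reads of a group, so the deepest libraries weigh most. Of 16540 genes in the abdomen table, 13644 matched the reference list, which gave symbols, neighbour order and no product names; 2896 did not match. Product-based lists (gut, muscle, testis) are thus not analysed here.

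Genes were tested when 3 or more of the 12 male libraries of a tissue reached a value of 10. Tests were made with limma 3.58.1 (trend and robust moderation, R 4.3.3) on log2(value + 1), so fold changes of low genes are understated. The fit had 1 mean per genotype, and all 12 male libraries shared the estimate of spread. Calls were two-sided at a Benjamini-Hochberg adjusted p under 0.05 over all tested genes. A count model was planned only for raw counts. As the deposited values are normalized, count models on recovered reads (DESeq2 1.42.0 and edgeR 4.0.16) serve as alternatives. Only the main limma fit, without a replicate block, was tried on simulated counts. These were drawn with 1 spread for all genes and no difference between replicates. The simulation thus cannot show how the fit behaves where replicates differ as they do here. Figures used Python 3.11.15 and matplotlib 3.10.9.

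Labels give the genotypes the same replicate numbers. Deviations from the genotype mean correlated at 0.17, 0.32 and 0.60 between YM and YM(III) libraries of the same number and at -0.44 to 0.25 between other numbers. Replicate 1, at 0.17, lay within the range of the other numbers, and replicate 3 stood out most. The pairing is thus an assumption, and the replicate block was fitted as an alternative.

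Named genes were the called symbols, the 8 largest differences in each direction and the 3 largest on element A and all on element F taken from the 731 called genes whose genotypes did not overlap and whose mean reached 50, and the 3 smallest p of each list, 47 in all. The tables hold 53 symbols, and 44 of them were tested. The compared genotypes, the lists and the male abdomen class were chosen with earlier results of these data known. Other alternatives were scaling factors, filters, pseudocounts, thinned reads and left-out libraries.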

Additional observations from a re-analysis of the deposited data

Results flagged for a closer look

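LOC101900701, which has no element in the tables, was called in both tissues with opposite directions. In abdomens it measured 157, 260.3 and 64.1 normalized reads in YM and 11.1, 10.6 and 34.0 in YM(III), a log2 difference of 3.03 (SE 0.69, limma adjusted p = 0.0241). In heads it measured 23.3, 7.56 and 7.35 in YM and 113, 128 and 183 in YM(III), a log2 difference of -3.54 (SE 0.40, limma adjusted p = 0.00227). Every YM library was above every YM(III) library in abdomens and below every one in heads. The difference between the tissues was not tested, since their tables were normalized separately. In the female heads it measured 10.5 in strain IsoCS, 229 in CSrab and 142 in CS, and in the female abdomens 0.819 in IsoCS and 11.6 in CSrab, with 1 library a strain.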

How the results depend on the processing

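The count of 1047 abdomen genes called stayed within 1.5 times under TMM factors, DESeq2 size factors, no filter, other pseudocounts, edgeR, replicates 1 and 2 only, and the 6 libraries with a replicate block. It was 652 with a mean of at least 50, 1979 with DESeq2, 2147 with voom, 2379 with the replicate block, 2325 with a replicate 3 term, 321 with the 6 compared libraries only, 413 on thinned reads and 257 without both libraries under 1 M reads. Leaving out 1 library gave 261 to 996. Without YM replicates 1 and 2, chosen after seeing the data, it was 2, with a lone YM library assumed to vary like the other groups. The share higher in YM was 81.9%, against 61.0% with the replicate block, 62.9% with the replicate 3 term, 69.8% with DESeq2 and 67.0% with voom. The 97 head genes became 431 with the replicate block, 1208 with replicates 1 and 2 only (abdomens 1236) and 30 to 97 without 1 library.

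The class share of 39.7% called higher was 23.7% with edgeR, 63.5% with the replicate block, 63.8% with the replicate 3 term, 11.7% with the 6 libraries only, 20.1% on thinned reads, 6.77% without both libraries under 1 M reads and 10.5% to 54.8% without 1 library. It was 0.13% without YM replicates 1 and 2. Element A held 17.8% to 21.96% of called genes under all settings but that one, where it held 0%. The class and its alternatives were set after seeing the data. The cause of these shifts was not tested. The median of all genes lay at -0.12 with a mean of at least 50 and at 0.10 on thinned reads, against -0.04. At 0.789 M reads in YM replicate 2, 3 reads are 3.80 CPM, which limits low genes. With the replicate block no called gene was lost.

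Of the named genes' values under the alternatives, 467 of called genes kept their call and 128 lost it, and none turned sign. The sign could not turn with the replicate block, the replicate 3 term, other filters or the 6 libraries only, which leave the log2 difference unchanged. Among genes not called, 27 values passed the threshold and 30 turned sign. Signs turned for attacin (-0.58 without YM replicates 1 and 2) and SPN13 (1.87 on thinned reads, -0.71 to 0.43 without 1 library). They turned for para-like (0.024 with voom, 0.59 without both small libraries, 0.87 without YM replicates 1 and 2, -0.99 to 0.59 without 1 library). nAChRbeta3 gave -0.12 with voom, -0.070 with replicates 1 and 2 only, -0.15 without both small libraries, -0.66 without YM replicates 1 and 2, and -0.49 to 0.61 without 1 library. Without both small libraries and without YM replicates 1 and 2, Sxl was at 0.031 and 0.12 and TPS at 0.030 and 0.59. Without 1 library, Sxl ran from -0.34 to 0.031, TPS from -1.04 to 0.031, armadillo from -0.016 to 0.47 and caspase-1 from -0.21 to 0.12. caspase-1 was at 0.0017 with edgeR, 0.017 with DESeq2, 0.048 with voom, 0.059 without both small libraries and 0.30 without YM replicates 1 and 2.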
